A study of Mus musculus with 22 samples.

Results

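The genes of de novo fatty acid synthesis, the pathway that builds fatty acids from citrate, were read across 22 mice in mammary tissue that held engrafted cancer cells. The 10 genes were chosen by name as pathway members (Fasn, Acaca, Acly, Scd1, Scd2, Elovl6, Me1, Thrsp, Srebf1 and Mlxipl), out of 52526 distinct gene symbols in the deposited tables. All 10 lay above the lower limit of the tables in every mouse, so each of them was among the 15138 genes tested. All mice were female C57BL/6J, 7 to 8 weeks old, and had luciferase-expressing EO771 cells, a syngeneic mammary cancer line, placed in the left 4th mammary fat pad. Control mice had a hub alone in the cage and Wheel mice a running wheel on the hub, for 2 weeks before engraftment. Each mouse received either PBS liposomes or clodronate liposomes, which kill the phagocytes that take them up, by vein at 24 hours before engraftment and again at engraftment, and the tissue was taken 24 hours after it. PBS liposomes were given to 6 Control and 6 Wheel mice, clodronate liposomes to 5 of each, and all carried the label of experiment 1. Since every mouse carried the cancer cells, tissue without them was not part of the comparison, and whole tissue was read, in which fewer cells of a type and less RNA per cell cannot be told apart.

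Fatty acid synthesis starts in the cytosol with Acly, which splits citrate into acetyl-CoA, and with Acaca, which turns acetyl-CoA into malonyl-CoA in the committed step. Fasn then joins these units into palmitate with NADPH, part of which comes from Me1, the cytosolic malic enzyme. Elovl6 lengthens palmitate, Scd1 and Scd2 place a double bond in the products, and Thrsp (Spot 14) is a small protein of lipogenic tissues. Srebf1 and Mlxipl encode SREBP-1 and ChREBP, transcription factors that answer to insulin and to glucose. In the mammary gland the pathway runs in the adipocytes of the fat pad and, during lactation, in the secretory epithelium.

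Libraries were made with QuantSeq, which gives 1 read per transcript from its 3′ end, so levels in CPM (counts scaled to a fixed library total) can be set side by side between genes without a length correction. Depth ran from 13256467 to 20484578 reads per mouse (median 16293026), and the deposited tables raise every value below 1 CPM to 1, which hides up to 13 to 20 reads per gene. The lowest value of any member was 8.69 CPM (Mlxipl, 143 reads in that mouse), well above that limit. Markers of fat were high in every mouse: Adipoq, the adipocyte hormone, ran from 865 to 2656 CPM and Fabp4, a fatty acid carrier, from 2576 to 8453 CPM, against 34.9 to 213 CPM for Krt18 of luminal epithelium. A score was taken for each marker list as the mean of log2(CPM + 1) over its genes. The score of 12 lymphocyte markers was 4.24 to 5.73 in 5 mice (Control PBS 2, Wheel PBS 3, and Wheel clodronate 3, 4 and 5) and at most 1.39 in the others. The score of 8 skeletal muscle markers ran from 2.09 to 11.22, with the highest value in Control clodronate mouse 2. A muscle score of 10.11 was found in Wheel clodronate mouse 2. The lymphocyte score set its 5 mice apart. The muscle score was graded, with 8.22 in Control PBS mouse 3 and 7.98 in Control clodronate mouse 3. Counts of members without those 5 mice, and without each of the mice highest in muscle markers, are given beside the clodronate comparisons.

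The promoters of members that moved together are shown for 3 genes: Fasn and Acly, which followed each other closely from mouse to mouse, and Mlxipl, which encodes a regulator of the pathway. Each is the 250 bases before an annotated start in RefSeq (build GRCm38.p6), printed 5′ to 3′ on the strand of the gene, with motif matches in capitals. Both strands were searched for the CCAAT box, spelled as in its name. The E-box was searched as CACGTG and the GC box as GGGCGG. The sterol regulatory element was searched as TCACNCCAC.
Fasn, chr11:120824548-120824797, minus strand: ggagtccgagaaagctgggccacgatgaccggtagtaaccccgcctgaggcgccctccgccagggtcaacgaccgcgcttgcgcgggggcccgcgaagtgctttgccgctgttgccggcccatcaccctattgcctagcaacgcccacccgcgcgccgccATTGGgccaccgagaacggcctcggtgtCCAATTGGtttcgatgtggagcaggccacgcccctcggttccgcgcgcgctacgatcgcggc
Acly, chr11:100528001-100528250, minus strand: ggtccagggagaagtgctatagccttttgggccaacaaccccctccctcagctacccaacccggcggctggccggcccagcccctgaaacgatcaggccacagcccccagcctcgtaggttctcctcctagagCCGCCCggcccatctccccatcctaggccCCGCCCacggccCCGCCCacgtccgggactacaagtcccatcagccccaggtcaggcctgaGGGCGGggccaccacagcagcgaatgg
Mlxipl, chr5:135089640-135089889, plus strand: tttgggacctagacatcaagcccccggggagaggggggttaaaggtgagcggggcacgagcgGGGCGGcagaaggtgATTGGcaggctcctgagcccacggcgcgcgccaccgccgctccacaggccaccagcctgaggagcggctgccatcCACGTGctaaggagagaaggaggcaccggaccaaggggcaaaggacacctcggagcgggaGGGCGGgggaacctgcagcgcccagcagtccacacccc
The Fasn window holds 3 CCAAT boxes, of which a pair overlaps on opposite strands. The Acly window holds 4 GC boxes and no CCAAT box. The Mlxipl window holds 1 E-box, 1 CCAAT box and 2 GC boxes. Promoters were found for 8 of the 10 members, in 12 windows, and not used here for Scd1 and Scd2. A CCAAT box was in 6 of the 12 windows and a GC box in 5, against 33.8% and 32.7% of all 32851 windows of this length. An E-box was in 1 of the 12, against 6.02%, and a sterol regulatory element in 1, a second Mlxipl window, against 1.05%. These matches describe letters only.

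The members spanned a wide range of levels, from Scd1 and Fasn at the top to the transcription factor genes at the bottom. Over all 22 mice Scd1 had a mean of 4286 ± 1787 CPM (SD, n = 22), rank 12 of 15138 genes, and Fasn 2781 ± 1523 CPM (SD, n = 22), rank 14. Thrsp followed at 931 ± 533 CPM (SD, n = 22), rank 28. These 3 were among the most abundant transcripts of the tissue. Acly averaged 554 ± 434 CPM (SD, n = 22), Me1 469 ± 358 CPM (SD, n = 22), Elovl6 292 ± 174 CPM (SD, n = 22) and Acaca 281 ± 154 CPM (SD, n = 22). Scd2 averaged 80.6 ± 57.6 CPM (SD, n = 22) and Srebf1 68.3 ± 22.6 CPM (SD, n = 22). Mlxipl was lowest, at 22.2 ± 11.5 CPM (SD, n = 22), rank 4476. In this order the steps from Fasn to Thrsp, from Acaca to Scd2 and from Srebf1 to Mlxipl were larger than the larger SD of the pair, and all other neighbours differed by less than it. Scd1 and Scd2 lie in the same region of chromosome 19 (Scd2 at 44293674 to 44306864, plus strand, and Scd1 at 44394455 to 44407879, minus strand, in GRCm38, GENCODE M21). In each mouse Scd1 was 25.6 to 242 times as high as Scd2. Fasn (11, 120805846 to 120824547, minus strand) and Acly (11, 100476353 to 100528000, minus strand) share chromosome 11 with Acaca (84129672 to 84401651, plus strand) and Srebf1 (60199089 to 60222581, minus strand). Of the last 400 bases of its transcripts, where the reads fall, Acaca shared 22.3% of 31-base words with Gm5182 and Elovl6 14.5% with Gm11295, so part of their reads may have been split or dropped. Srebf1, Me1, Elovl6 and Mlxipl overlap an exon of another gene on the opposite strand, and QuantSeq FWD reads keep their strand. Scd2 overlaps Mir5114 and Srebf1 overlaps Mir6922 on the same strand, which strand cannot tell apart.

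The comparison of clodronate with PBS liposomes asks what changed in the tissue when phagocytes were targeted. All 10 genes were lower on average with clodronate, with a median log2 change of -1.23 over the 10, against -0.042 over all genes tested (limma on log2(CPM + 1), averaged over Control and Wheel mice). Scd2, a stearoyl-CoA desaturase, was the only member past the threshold, 2.69-fold lower (log2 change of -1.43, SE 0.26, adjusted p = 0.017, limma with Benjamini-Hochberg adjustment over 15138 genes, two-sided), where 31 genes or 0.205% of all genes passed and all 31 were lower. Acly, the citrate-splitting enzyme, had the most negative change of all 15138 genes and lay just outside the threshold (log2 change of -1.86, SE 0.41, adjusted p = 0.053). At an unadjusted p under 0.05 all 10 members were lower, against 8.3% of all genes, and 57.4% of all genes had a change below 0. Of the 35 genes with a log2 change of -1 or lower (0.231% of all genes), 8 were members, which is 22.9% of those genes and 80% of the members. The members were chosen with earlier results of these data known, so these shares are a description and not a test.

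For Scd2, PBS mice ran from 62.1 to 272 (median 92.0) CPM in the Control group and from 37.2 to 138 (median 113) in the Wheel group. With clodronate the Control mice were at 62.1, 34.1, 31.9, 37.4 and 39.4 CPM, in the order of their replicate numbers. The Wheel mice with clodronate were at 33.9, 16.1, 30.6, 54.1 and 61.9 CPM. The highest clodronate mouse and the lowest Control PBS mouse were both at 62.1 CPM, and Wheel PBS mouse 2, at 37.2 CPM, was the PBS mouse that lay well inside the clodronate values.

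For Acly, PBS mice ran from 353 to 1783 (median 615) CPM in the Control group and from 374 to 1098 (median 681) in the Wheel group. With clodronate the Control mice were at 687, 88.3, 104, 56.2 and 95.05 CPM. The Wheel mice with clodronate were at 262, 132, 100.2, 786 and 595 CPM. Control clodronate mouse 1 was inside the PBS range and the other 4 Control mice far below it, while in the Wheel group mice 4 and 5 were inside the PBS range and mice 1, 2 and 3 below it.

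Fasn, the palmitate synthase, had PBS values from 2368 to 4979.7 (median 2828) CPM in the Control and 2500.1 to 4377 (median 4092) in the Wheel group. With clodronate the Control mice were at 5571, 579, 666, 517 and 947 CPM. The Wheel mice with clodronate were at 1909, 1601, 582, 3177 and 3067 CPM. Control clodronate mouse 1 held the highest Fasn value of all 22 mice, although its group held 4 of the lowest 5. Averaged over activity, Fasn was 2.57-fold lower but missed the threshold (log2 change of -1.36, SE 0.34, adjusted p = 0.089, limma). Acaca, which feeds Fasn with malonyl-CoA, gave a log2 change of -1.26, SE 0.30, adjusted p = 0.084 and did not pass either. Its Control clodronate values were 514, 77.2, 82.4, 77.9 and 93.8 CPM, against 205 to 587 (median 353) in the 12 PBS mice, and mouse 1 was again the only one of the 5 within that range. The Wheel mice with clodronate had Acaca at 166, 209, 57.7, 272 and 292 CPM, of which mice 1 and 3 lay below it.

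**Figure D1:**
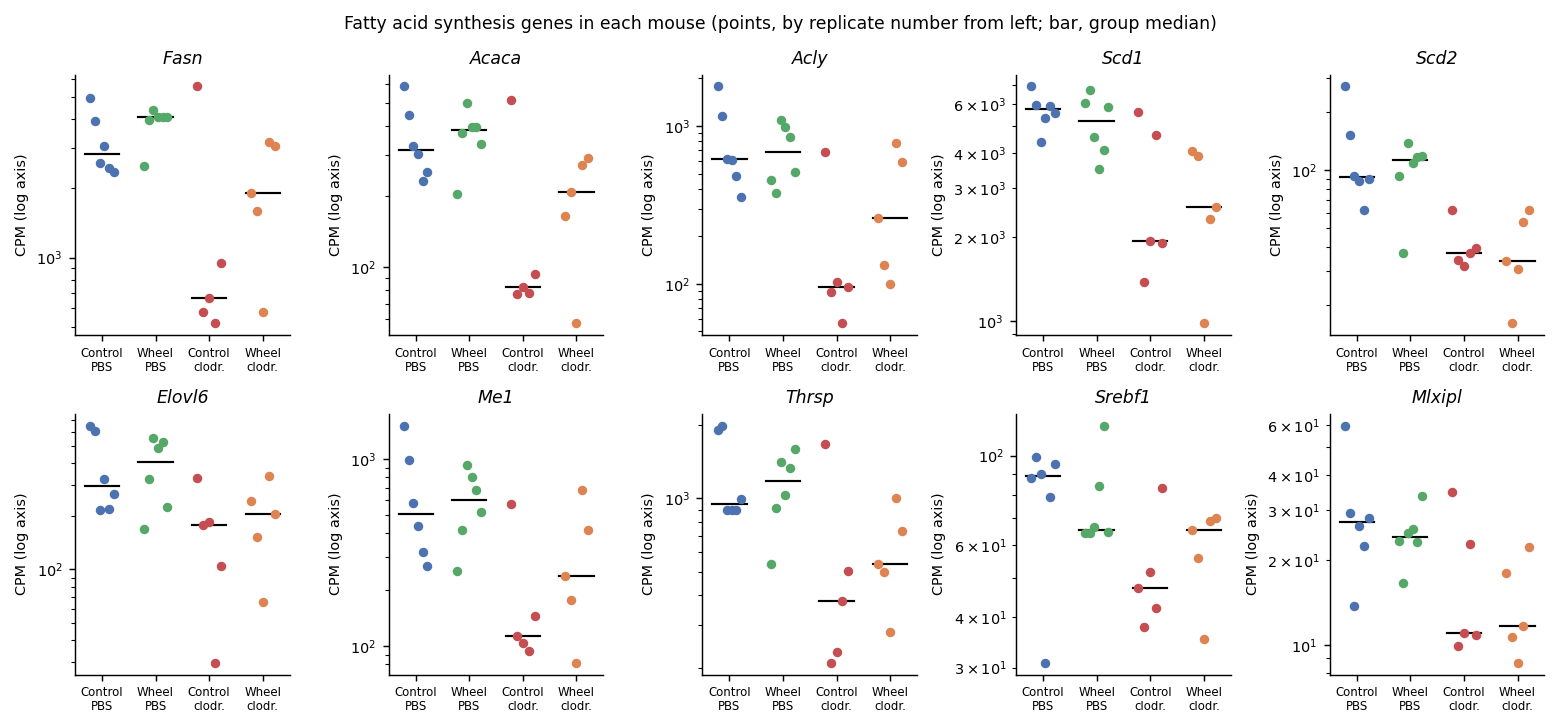
CPM of each of the 10 genes in each mouse (log axis), with mice of a group ordered by replicate number and a bar at the group median. In the Control clodronate group mouse 1, the leftmost point, stands above the other 4 for Fasn (5571 CPM), Acaca, Acly and Me1, and the other 4 lie below every Control PBS mouse for these genes.

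Me1, which supplies NADPH, ran from 252 to 1506 (median 551) CPM in the PBS mice. Its values with clodronate were 574, 114, 104, 93.9 and 145 CPM in Control and 236, 177, 81.4, 685 and 417 CPM in Wheel mice. It followed Acly, with Control mouse 1 and Wheel mice 4 and 5 inside the PBS range (log2 change of -1.49, SE 0.37, adjusted p = 0.089, limma). Thrsp, with the same 7 clodronate mice below the PBS range, had an averaged change that missed the threshold (log2 change of -1.19, SE 0.30, adjusted p = 0.090). Its Control clodronate values were 1672, 210.4, 233, 378 and 504 CPM, against 539 to 1995 (median 1013) with PBS. Thrsp therefore overlapped the PBS range in Control mouse 1 and came close to it in mouse 5. The Wheel mice with clodronate had Thrsp at 535, 496, 283, 1008 and 734 CPM, with mice 4 and 5 inside the PBS range.

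Scd1, the main desaturase by level, behaved differently in Control clodronate mouse 4. PBS mice ran from 3525 to 6944 (median 5717) CPM, and Control mice with clodronate were at 5599, 1376, 1937, 4631 and 1904 CPM. The Wheel mice with clodronate were at 4089, 3894, 982, 2319 and 2561 CPM. Mouse 4 held Scd1 within the PBS range and Fasn below it, a Scd1 to Fasn ratio of 8.97, where Control PBS mice had ratios of 1.39 to 2.41. The averaged Scd1 change missed the threshold (log2 change of -1.05, SE 0.26, adjusted p = 0.090, limma), as did that of Elovl6, the elongase (log2 change of -1.20, SE 0.35, adjusted p = 0.16). Elovl6 ran from 169.8 to 651 (median 325) CPM with PBS and was at 329.5, 177, 186, 29.7 and 105 CPM in Control mice with clodronate, where mouse 4 was lowest of all 22. In Wheel mice with clodronate Elovl6 was at 243, 152, 65.1, 339 and 207 CPM, with mice 2 and 3 below the PBS range.

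The genes of the regulators had smaller changes. Srebf1 ran from 30.8 to 119 (median 81.7) CPM in PBS mice and from 35.2 to 83.4 (median 53.7) in clodronate mice, so the ranges overlapped over most of their length (log2 change of -0.48, SE 0.19, adjusted p = 0.34, limma). Mlxipl ran from 13.8 to 59.6 (median 25.4) CPM with PBS and from 8.69 to 34.8 (median 11.4) with clodronate (log2 change of -0.77, SE 0.23, adjusted p = 0.19). By size of fall, Srebf1 was at rank 649 and Mlxipl at rank 116 of 15138, while the 7 enzymes and Thrsp lay within the first 29 ranks.

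**Figure D2:**
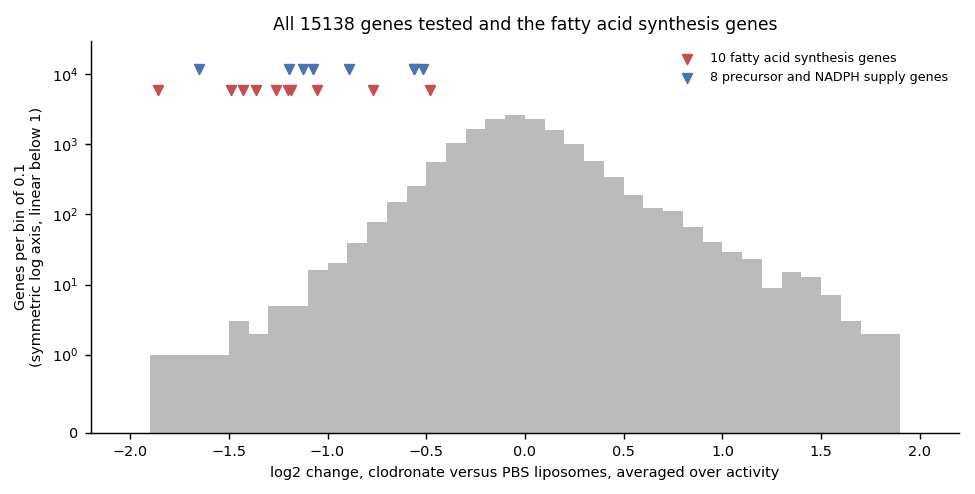
Number of genes (symmetric log axis, linear below 1) by log2 change with clodronate, averaged over activity, in bins of 0.1 for all 15138 genes tested, with triangles at the 10 fatty acid synthesis genes and at 8 genes of precursor and NADPH supply. All 18 triangles lie below 0, the members from -1.86 to -0.48.

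The calls turned on single mice. Without Control clodronate mouse 1, 8 members passed an adjusted p of 0.05 in the averaged comparison (Fasn, Acaca, Acly, Scd1, Scd2, Me1, Thrsp and Mlxipl), against 146 genes or 0.964% of all, and the median change was -1.47. Without Control clodronate mouse 3 no member passed (Scd2 adjusted p = 0.0501), where 9 genes of 15138 did. Acly passed beside Scd2, which makes 2 members, without Control PBS mouse 4 (70 genes of all), Wheel clodronate mouse 4 (31 genes) or Wheel clodronate mouse 5 (32 genes). Control clodronate mouse 1 had a depth of 20484578 reads, the largest of the 22, and a macrophage marker score of 4.23, inside the range of 3.94 to 5.14 of the other clodronate mice and of 4.00 to 5.70 of the PBS mice. Its brown fat marker score of 3.896 was the highest of the clodronate mice (next 3.623) and inside the PBS range of 2.877 to 4.303. Its basal epithelium marker score of 4.657 was the lowest of its group (next 5.718). Wheel clodronate mice 4 and 5 were lower still, at 4.232 and 4.231, and PBS mice ran from 3.749 to 7.603. The part of depth and of these scores in its values was not tested. With the adipocyte score as a covariate no member passed (Scd2 adjusted p = 0.115), and none passed without the 5 mice high in lymphocyte markers (Scd2 adjusted p = 0.0885). Scd2 was at -1.51 and -1.62 in these fits, against -1.43 with all mice and no covariate. The median of the members was at -1.26 and -1.13, against -1.23. Single members moved more. Scd1 had a smaller fall in both fits, at -0.68 and -0.71. Elovl6 had a larger fall with the covariate (-1.65) and a smaller one without the 5 mice (-0.99). Without Control clodronate mouse 2 or Wheel clodronate mouse 2, the mice highest in muscle markers, Scd2 was called in both fits and the medians were -1.22 and -1.23. Muscle scores were graded, so leaving out 1 mouse does not remove muscle content. Control clodronate mouse 1 and Wheel clodronate mice 4 and 5 had muscle scores of 2.51, 2.15 and 2.10. The other clodronate mice had 3.70 to 11.22, and PBS mice 2.09 to 8.22. The part of muscle content in the values of the members was not tested.

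Within the Control mice all 10 genes were lower with clodronate at an unadjusted p under 0.05, against 6.08% of all genes, and the median change was -1.45, while 65.4% of all genes lay below 0. None passed the adjusted threshold, nor did any other gene (0.0%). Acly had the largest change (log2 change of -2.47, SE 0.57, adjusted p = 0.31, limma), followed by Me1 (log2 change of -1.84, SE 0.53, adjusted p = 0.43). The 95% interval of Acly ran from -3.66 to -1.29. Without mouse 1 of the clodronate group, 5 members passed (Fasn, Acaca, Acly, Me1 and Thrsp), against 38 genes or 0.251% of all, and Fasn then had a log2 change of -2.24 and Acly of -3.08 (adjusted p = 0.0096 for both). Without Control clodronate mouse 2, or without the mice high in lymphocyte markers, 8 members were lower at an unadjusted p under 0.05 in Control mice, with medians of -1.38 and -1.33. Within the Wheel mice 8 genes were lower at an unadjusted p under 0.05, against 5.54% of all genes, with a median of -1.02, and all 10 lay below 0, against 49.9% of all genes. That count rested on few mice: it was 2 without the 5 mice high in lymphocyte markers (5.81% of all genes, median of the members -0.90) and 3 without Wheel clodronate mouse 2 (5.58% of all genes, median -0.99), and all 10 members lay below 0 in both. In this comparison 11 of the 12 lymphocyte markers were higher at an unadjusted p under 0.05 (median 2.00, 0 past the adjusted threshold), and the part of these markers in the values of the members was not tested. None of the members passed the adjusted threshold there, and the 1 gene that did, Gm7536 (0.00661% of all genes, named after its value was seen), is on none of the lists used here. Scd2 had the lowest adjusted p of the members in Wheel mice (log2 change of -1.39, SE 0.36, adjusted p = 0.17). The interaction of activity and liposome called 0 of the 10 and 0.0% of all genes, and at an unadjusted p under 0.05, where 1.23% of all genes were below and 6.35% above 0, no member was among them. Of the 10 interaction terms, 9 were above 0, where 40.8% of all genes were below 0.

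**Figure D3:**
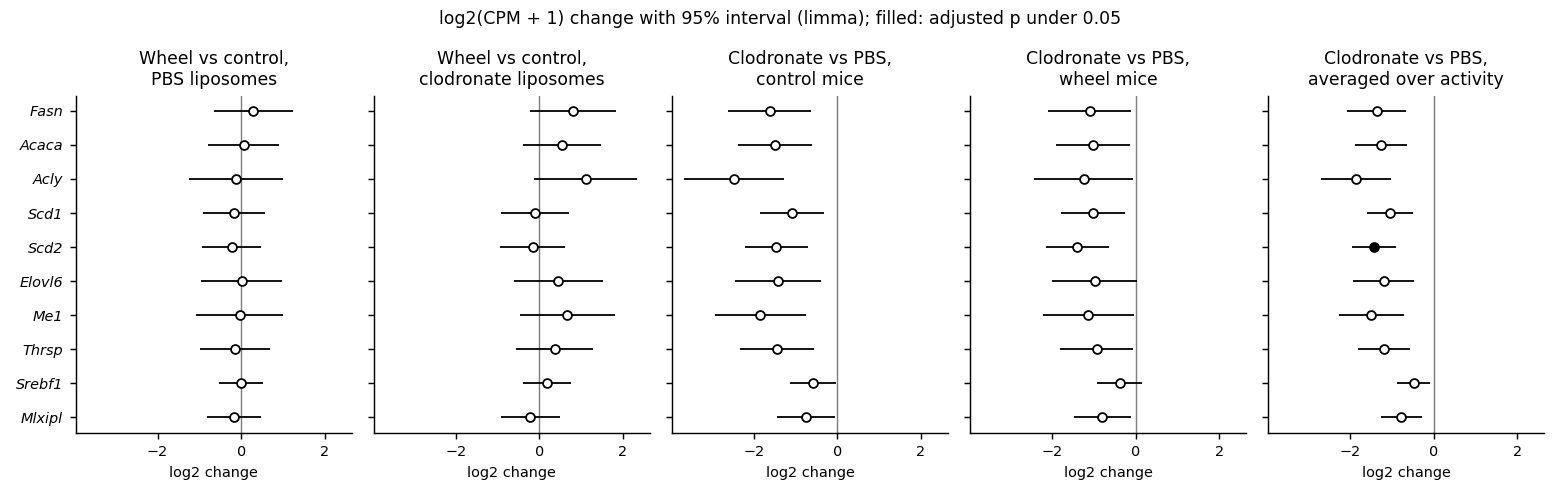
log2(CPM + 1) change of each gene with its 95% interval from limma, for the 5 comparisons named above each panel, with a filled point where the adjusted p was under 0.05. Only Scd2 in the averaged clodronate comparison is filled, and the intervals of the wheel comparison with PBS liposomes all span 0.

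Wheel running is the activity comparison of the study. With PBS liposomes no member passed between Wheel and Control mice, nor did any other gene (0.0%). At an unadjusted p under 0.05, 4.12% of all genes were lower and 0.799% higher, and no member was among them. Of the members 7 were below 0, against 63.8% of all genes. The changes ran from -0.23 for Scd2 to 0.29 for Fasn, with a median of -0.078 against -0.085 for all genes. The 95% intervals were wide: -0.66 to 1.24 for Fasn, -1.25 to 1.01 for Acly and -0.91 to 0.57 for Scd1 on the log2 scale. Their width also reflects the clodronate mice, since the fit estimates the spread of each gene over all groups together. The SD of log2(CPM + 1) of Fasn was 0.43 in Control and 0.30 in Wheel mice with PBS. With clodronate it was 1.41 and 0.99. For Scd1 the SDs were 0.22 and 0.36 with PBS, and 0.89 and 0.83 with clodronate. All 8 skeletal muscle markers had a change of -1 or lower in this comparison (median -1.82, none at an unadjusted p under 0.05). The signs of the smallest changes turned with the scaling: Me1 went from -0.034 to 0.065 and Srebf1 from -0.0084 to 0.090 with upper-quartile scaling.

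With clodronate liposomes 7 of the 10 genes had a higher mean log2 level in Wheel than in Control mice and 3 a lower one, where 49.3% of all genes were below 0, and 0 members passed (1 of all genes, 0.00661%, again Gm7536). Acly had the largest difference (log2 change of 1.11, SE 0.60, adjusted p = 0.55, limma; 95% interval -0.13 to 2.35), then Fasn (log2 change of 0.81, SE 0.50, adjusted p = 0.63). Scd1, Scd2 and Mlxipl lay below 0, from -0.10 to -0.21, and Scd1 turned to 0.229 with the adipocyte score as a covariate and to 0.588 without the 5 mice high in lymphocyte markers, of which 3 were Wheel mice with clodronate. All 12 lymphocyte markers were higher at an unadjusted p under 0.05 in this comparison (median 2.48, 0 past the adjusted threshold), and their part in the values of the members was not tested. Averaged over liposomes, the members ran from -0.20 to 0.55 and 0 passed (0.0% of all genes). The comparisons share groups of mice, so they are not independent of each other.

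Across single mice, the genes fell into a tight set and a loose one. These relations rest more on the clodronate mice, which spread more widely around their group means. The SD of log2(CPM + 1) of Fasn was 1.41 in Control and 0.99 in Wheel mice with clodronate. It was 0.43 and 0.30 with PBS, and relations within PBS mice alone were not tested. After removing group means, Fasn followed Acaca (Pearson r = 0.967, Spearman rho = 0.921), Thrsp (r = 0.898, rho = 0.905), Acly (r = 0.890, rho = 0.872) and Me1 (r = 0.883, rho = 0.922) over the 22 mice, each with an adjusted p of at most 0.000112 by permutation of the mice within groups over 9 relations. Leaving out the 2 mice with the most extreme Fasn, these r were 0.917, 0.828, 0.833 and 0.856. The relations of Fasn with Elovl6 (r = 0.727, rho = 0.758, adjusted permutation p = 0.0038) and Mlxipl (r = 0.623, rho = 0.570, adjusted permutation p = 0.009) were looser, as was Scd2 (r = 0.512, rho = 0.721, adjusted permutation p = 0.0087). Without the 2 mice, r was 0.646 for Elovl6, 0.426 for Mlxipl and 0.567 for Scd2. The relation of Scd1 with Fasn did not pass and rested on these mice, with r of 0.539 (rho = 0.283, adjusted permutation p = 0.088) and 0.0817 without them. Srebf1, the regulator, had r = 0.281 with Fasn (adjusted permutation p = 0.21) and 0.302 without those mice, while its rank correlation passed (rho = 0.458, adjusted permutation p = 0.044). Without the 5 mice high in lymphocyte markers, r with Fasn was 0.866 to 0.963 for Acaca, Thrsp, Acly and Me1, 0.658 for Elovl6 (unadjusted permutation p = 0.099) and 0.0726 for Srebf1. Over all 45 pairs of members r ran from 0.026 (Scd1 with Scd2) to 0.967, with a median of 0.590, and 16 pairs were above 0.7. The closest pair after Fasn and Acaca was Acly with Me1 (r = 0.952). With the mean of the other 9 members, Me1, Acaca and Fasn had r of 0.923, 0.922 and 0.921, and Srebf1 and Scd1 had 0.315 and 0.408.

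**Figure D4:**
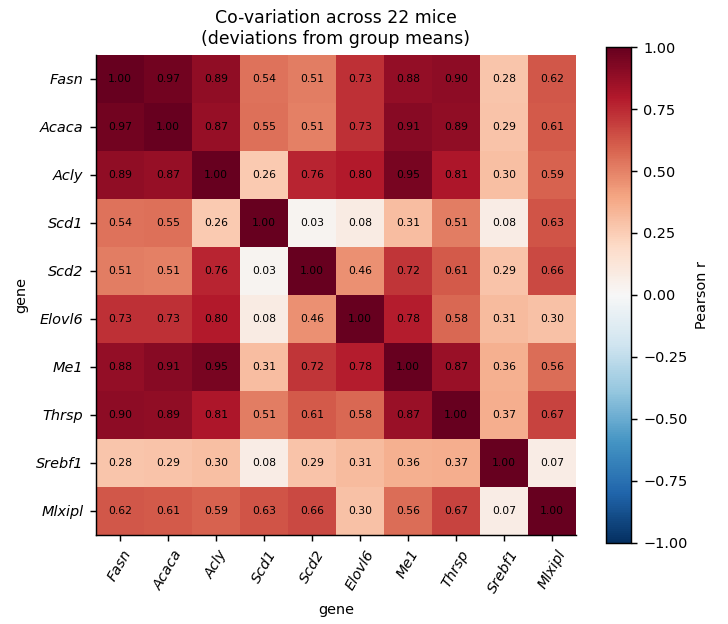
Pearson r for each pair of the 10 genes over 22 mice, computed on log2(CPM + 1) after removing each group's mean, on a color scale from -1 to 1. Fasn, Acaca, Acly, Me1 and Thrsp form a block with r from 0.81 to 0.97. Off the diagonal, the row of Srebf1 is pale (r of at most 0.37) and that of Scd1 runs from 0.03 to 0.63.

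Among the other 15128 genes tested, the ones with a pattern most like the mean of the members were Slc25a1, the mitochondrial citrate carrier (r = 0.97), Acss2, which makes acetyl-CoA from acetate (r = 0.95), Taldo1 of the pentose phosphate pathway (r = 0.94) and Agpat2 of glycerolipid synthesis (r = 0.93). Next came Pdha1, Gpd2, Pdhb, Pcx, Gpd1 and Pygl, with r from 0.90 down to 0.89, and 21 genes had r above 0.8. Pdha1 and Pdhb are subunits of pyruvate dehydrogenase, and Pcx is pyruvate carboxylase, which makes oxaloacetate. The least like were Acvr1b, 9130023H24Rik, Tmem87a, Ryk and Bmpr2, with r from -0.75 to -0.72. These r describe 22 mice after removing group means, and genes were ranked by them over all genes tested.

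The other genes of the pathway were read in 3 lists. Of 8 genes of precursor and NADPH supply, all 8 lay below 0 with clodronate averaged over activity, with a median change of -0.98, and 1 passed: Pgd, phosphogluconate dehydrogenase of the pentose phosphate pathway, 2.29-fold lower (log2 change of -1.19, SE 0.21, adjusted p = 0.017, limma). Pgd averaged 175 ± 61.4 CPM (SD, n = 12) in PBS mice and 79.0 ± 38.4 CPM (SD, n = 10) in clodronate mice. Acss2 gave a log2 change of -1.65, SE 0.36, adjusted p = 0.053 and Slc25a1 a log2 change of -1.12, SE 0.29, adjusted p = 0.10, neither past the threshold. Tkt, transketolase, gave a log2 change of -1.07, SE 0.30, adjusted p = 0.13. Without Control clodronate mouse 1, 7 genes of the 3 lists passed: Slc25a1, Acss2, Pgd, Tkt, Taldo1, Pcx and Insig1 (Insig1 named after its value was seen).

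The next list held 13 genes, enzymes apart from Mid1ip1, a partner protein. Of these, 10 were tested, since Fads2, Scd4 and Pklr were at the lower limit in nearly all mice (named after their values were seen). Of the 10 tested none passed, 5 were below 0 and the median change was -0.02. Elovl5, an elongase of longer fatty acids, gave a log2 change of -0.13, SE 0.12, adjusted p = 0.75, and Acacb, the carboxylase that governs fat oxidation, a log2 change of -0.21, SE 0.20, adjusted p = 0.75 (limma). Acacb had 22.5 to 62.6 (median 42.5) CPM in Control and 53.2 to 85.6 (median 74.7) in Wheel mice with PBS, a difference that did not pass (log2 change of 0.73, SE 0.28, adjusted p = 0.99), and Mid1ip1, a partner of Acaca and Thrsp, gave a log2 change of -0.73, SE 0.35, adjusted p = 0.99 there. Of 13 regulators none passed with clodronate, 8 were below 0 and the median was -0.091. Usf2, an E-box factor and the most abundant of them, gave a log2 change of -0.24, SE 0.13, adjusted p = 0.52, and Mbtps1, a protease that activates SREBPs, a log2 change of -0.09, SE 0.12, adjusted p = 0.82. In Wheel against Control mice with PBS, Mbtps2 gave a log2 change of -0.84, SE 0.35, adjusted p = 0.99 and Usf2 a log2 change of -0.44, SE 0.17, adjusted p = 0.99.

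Adipocyte markers also lay below 0, with a smaller median change than the members. All 12 adipocyte markers were below 0 with clodronate averaged over activity, 0 passed, 6 had an unadjusted p under 0.05, and the median change was -0.41, against -1.23 for the members. Adipoq gave a log2 change of -0.18, SE 0.20, adjusted p = 0.79, Plin1, a coat protein of lipid droplets, a log2 change of -0.56, SE 0.16, adjusted p = 0.16, Lep (leptin) a log2 change of -0.61, SE 0.32, adjusted p = 0.51 and Fabp4 a log2 change of -0.45, SE 0.21, adjusted p = 0.47 (limma). The adipocyte score ran from 9.04 to 9.89 in PBS mice, from 8.62 to 9.74 in Control and from 8.66 to 9.25 in Wheel mice with clodronate. Control clodronate mice 4 and 5 had adipocyte scores of 9.74 and 9.55, inside the PBS range, with Fasn at 517 and 947 CPM, below every PBS mouse. Control clodronate mouse 1, with a score of 9.57, instead had Fasn at 5571 CPM, the highest of all mice. Control clodronate mice 2 and 3 had low scores of 8.62 and 8.69 and muscle scores of 11.22 and 7.98. The ratio of Fasn to Adipoq was 1.17 to 4.34 in Control PBS mice (median 1.89) and 0.236 to 2.76 in Control clodronate mice (median 0.670). In Wheel mice it was 0.941 to 3.59 with PBS (median 2.86) and 0.515 to 2.88 with clodronate (median 1.19). The ratio of Fasn to Plin1 was 2.67 to 7.04 in Control PBS and 0.704 to 9.14 in Control clodronate mice. In Wheel mice it was 3.27 to 9.02 with PBS and 1.84 to 9.56 with clodronate. All of these ranges overlap between the liposomes.

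Over the 22 mice after removing group means, the adipocyte score had r of 0.091 with Fasn (rho = -0.056, adjusted permutation p = 0.91 over 30 relations; r = 0.109 without the 2 most extreme mice) and of 0.604 with Scd1 (rho = 0.632, adjusted permutation p = 0.064; r = 0.481). Neither passed. Of the 30 relations of 10 members with 3 scores, 5 passed, all with the score of 8 brown fat markers: Elovl6 (r = 0.656, rho = 0.677, adjusted permutation p = 0.039), Thrsp (r = 0.613, rho = 0.565, 0.042), Me1 (r = 0.610, rho = 0.560, 0.042), Acaca (r = 0.602, rho = 0.582, 0.039) and Fasn (r = 0.561, rho = 0.595, 0.042). Without the 2 most extreme mice these r were 0.571, 0.436, 0.486, 0.488 and 0.426, and none of the 5 rank correlations passed after adjustment (lowest adjusted p = 0.055 by permutation). Ucp1, which defines brown and beige fat, was at the limit in most mice and reached at most 8.16 CPM, and Cidea, another gene of the list, ran from 13.4 to 63.6 CPM.

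**Figure D5:**
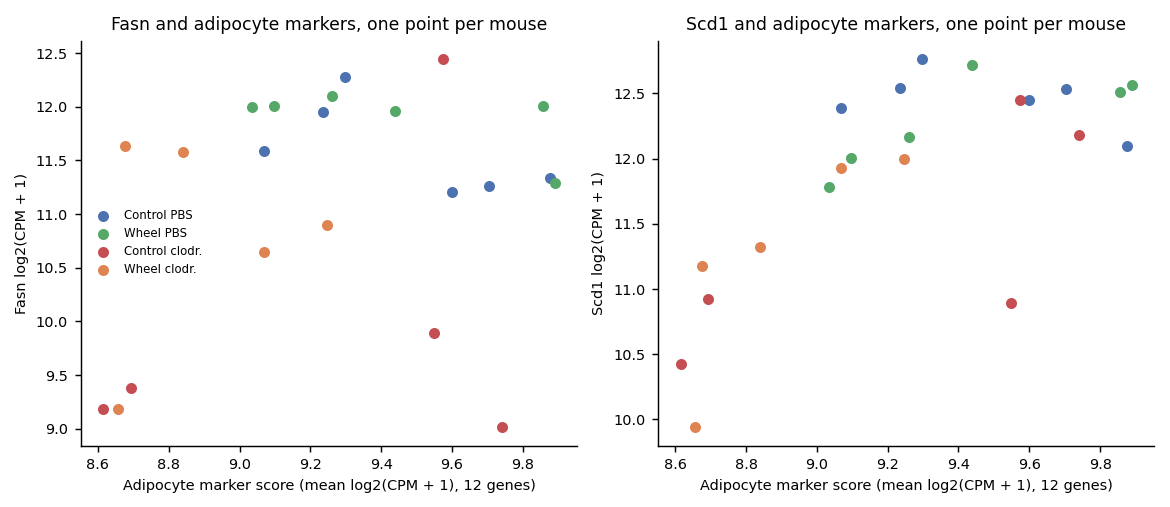
Fasn (left) and Scd1 (right) in log2(CPM + 1) against the adipocyte score, the mean log2(CPM + 1) of 12 markers, with 1 point per mouse colored by group. The Control clodronate mice with scores of 9.55 and 9.74 have Fasn far below the PBS mice near these scores. Scd1 in the mouse at 9.74 lies among the PBS mice. Control clodronate mouse 1, at a score of 9.57, has the highest Fasn of all 22 mice.

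Of the other marker lists, in the clodronate comparison averaged over activity, 0 genes passed in any. All 12 lymphocyte markers were above 0 (median 0.89) and all 8 skeletal muscle markers (median 1.52), with neither list holding a gene at an unadjusted p under 0.05 when averaged over activity. Within Control mice 11 of the 12 lymphocyte markers were below 0 instead (median -0.50). Of the 10 macrophage markers, all 10 were below 0 with a median of -0.25, and 2 had an unadjusted p under 0.05. The macrophage score was 4.87 ± 0.47 (SD, n = 12) in PBS and 4.58 ± 0.43 (SD, n = 10) in clodronate mice, a difference smaller than the SD of either group. Of 7 brown fat markers tested 5 were below 0 (median -0.37), of 8 luminal markers 5 (median -0.049), of 5 basal markers 1 (median 0.71) and of 8 proliferation markers 7 (median -0.15). Krt8, Krt18 and Epcam, of luminal epithelium, gave changes of -0.23, -0.05 and 0.08, none past the threshold. The part of these cell types in the changes of the members was not tested.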

How the data were processed

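Whole mammary tissue of 22 mice was read with 3′ QuantSeq libraries. Reads were aligned with STAR 2.5.3a to GRCm38, per the submitters' processing notes. The deposited tables hold a signal per gene, which is CPM (reads scaled to a fixed library total) with every value under 1 raised to 1. All values above 1 CPM came back as whole reads (tolerance 0.05), so depth was known, from 13256467 to 20484578 reads per mouse. The authors' total includes 4 rows that name no gene, which were left out of the tests, and 57.2 to 64.5% of reads fell on genes above the limit of 1 CPM. Groups followed the labels. The intervals and p-values come from the same fit and measure the spread between mice, estimated for each gene over all groups together.

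Of 52526 symbols (106 listed more than once, where the row with the highest mean was kept), 15138 exceeded 1 CPM in at least 5 mice and were tested. The log2(CPM + 1) values were fitted with limma 3.58.1 in R 4.3.3, with 4 group means and a variance trend, and p-values were adjusted by the Benjamini-Hochberg method over all 15138 genes (threshold 0.05, two-sided). Fold changes on this scale understate the change of low genes. Relations across mice used deviations from group means and 100000 permutations of mice within groups (smallest possible p of 1e-05; Python 3.11.15, numpy 2.4.6, scipy 1.17.1, pandas 2.3.3 and matplotlib 3.10.9). On simulated data a log2 change of 1.5 put into 200 genes was recovered for 88% of them in the wheel comparison with PBS liposomes (15137 genes, 13 false calls), and 91.5% in the averaged clodronate comparison (15138 genes, 9 false calls). The changed genes were taken from those of higher mean level. Each gene was drawn independently, with the same spread in every group. These shares need not hold for the members, which moved together and of which Fasn and Acly varied more with clodronate.

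The 10 genes, the pathway and marker lists and the tests were chosen with earlier results of these data known. All members were described. Of each other pathway list, the genes past the threshold, the 2 with the highest mean level and the 2 with the largest wheel change with PBS liposomes were named, and of the remaining genes the 10 most like and the 5 least like the members' mean pattern. Other pseudocounts, filters, scalings, covariates and samples were tried as alternatives, and 3 of them (without the 5 mice high in lymphocyte markers, used for the fits and the correlations, and the luminal or the lymphocyte score as a covariate) were chosen after seeing the data.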

Additional observations from a re-analysis of the deposited data

Results flagged for a closer look

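In 40 groups of 5 or 6 mice (10 genes in 4 groups), 7 had a mouse far from the others by Dixon's test at the 95% level, where chance gives about 2. In the Control group with clodronate liposomes, mouse 1 was far above the other 4 for Fasn (12.44 on the log2(CPM + 1) scale, next value 9.889), Acaca (9.007, next 6.566), Acly (9.426, next 6.708) and Me1 (9.168, next 7.193). These 4 genes vary together, so the 4 results describe 1 mouse. In the Wheel group with PBS liposomes, mouse 1 was low for Fasn (11.29, next 11.96) and mouse 2 was low for Scd2 (5.256, next 6.561). In the Control group with PBS liposomes, mouse 4 was low for Srebf1 (4.992, next 6.326).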

How the results depend on the processing

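In the averaged clodronate comparison the number of members called was 2 with a pseudocount of 0.1, with none and with the lymphocyte score as a covariate, 3 under the filter at a mean of 5 CPM and with the luminal score, 0 with the adipocyte score and without the 5 mice high in lymphocyte markers, and 0 to 8 without single mice (0 to 5 within Control mice). Other pathway genes called were 2 with a pseudocount of 0.1, with none, under the filter at a mean of 5 CPM and with the luminal or the lymphocyte score, 0 with the adipocyte score and without those 5 mice, and 1 to 7 without single mice (0 to 6 within Control mice). Over all genes, 54 were called under the filter at a mean of 5 CPM, 12 with upper-quartile and 15 with assigned-read scaling, 20 without a variance trend, 11 with the replicate block, 78 with the luminal score, 0 with the adipocyte score (limma; 1298 at an unadjusted p under 0.05) and 0 without the 5 mice (1898 at an unadjusted p under 0.05), and 9 to 146 without single mice.

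Within Wheel mice, clodronate called 3 genes with a pseudocount of 5, 4 with no filter, 3 with upper-quartile and 2 with assigned-read scaling, 2 without a trend, 14 without the 5 mice, 0 when just the groups compared were fitted, under the block, with the filter at a mean of 5 CPM and with the adipocyte or lymphocyte score, and 0 to 51 without single mice. Within Control mice it called 0 to 38 without single mice. Wheel against Control with clodronate called 3 with no filter, 12 without the 5 mice, 0 when just the groups compared were fitted, under the block, with the filter at a mean of 5 CPM and with the adipocyte or lymphocyte score, and 0 to 236 without single mice. Averaged over liposomes and in the interaction, 2 were called with no filter. The causes were not tested.

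Small changes turned sign. For Wheel against Control with PBS, Acaca was -0.0176 with the luminal score, Elovl6 -0.0252 with the adipocyte score, Me1 0.0652 with upper-quartile scaling, and Srebf1 0.0895 with upper-quartile scaling, 0.0215 with assigned-read scaling and 0.105 without the 5 mice. With clodronate, Scd1 was 0.229 with the adipocyte score, 0.588 without the 5 mice and 0.334 with the lymphocyte score. Without single mice, the PBS changes ran from -0.0437 to 0.222 (Acaca), -0.325 to 0.142 (Acly), -0.398 to 0.0340 (Scd2), -0.119 to 0.221 (Elovl6), -0.249 to 0.249 (Me1), -0.255 to 0.0584 (Thrsp), -0.261 to 0.0700 (Srebf1) and -0.360 to 0.0468 (Mlxipl), and those with clodronate from -0.337 to 0.233 (Scd1), -0.355 to 0.116 (Scd2), -0.0603 to 0.814 (Elovl6) and -0.383 to 0.0605 (Mlxipl). With group means kept, r with the adipocyte score was 0.140 for Acly, 0.307 for Scd2 and 0.159 for Me1. Without the 5 mice, it was 0.0314 for Scd2, and r of Srebf1 was -0.0764 with the brown fat and -0.0443 with the luminal score. Without single mice, r with the adipocyte score ran from -0.137 to 0.219 (Fasn), -0.178 to 0.134 (Acaca) and -0.0255 to 0.274 (Srebf1), with the brown fat score from -0.00887 to 0.353 (Scd1) and -0.00735 to 0.181 (Srebf1), and with the luminal score from -0.0521 to 0.267 (Acaca), -0.0243 to 0.281 (Acly), -0.283 to 0.0738 (Elovl6), -0.0565 to 0.209 (Me1) and -0.0278 to 0.121 (Srebf1). Of 690 log2 changes under the other alternatives, 672 kept their direction and side of the threshold. Only Scd2 in the averaged clodronate comparison was past the threshold at first, so most of the others had no call to lose. Its call was kept in 11 of 13 alternatives. Without single mice, 37 of 1100 changes turned sign.

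Same-numbered mice showed no clear pairing (r of their deviations from -0.388 to 0.517, mean 0.0475 over 31 pairs). The deposited titles skip a number before the last mouse of each clodronate group. That mouse was counted as replicate 5 here, so its match in this check and in the replicate block is uncertain. With the replicate block, 1 member was called in the averaged clodronate comparison (Scd2, -1.43, adjusted p = 0.0465). Tests on counts were not run, since reads of values raised to 1 CPM are lost, up to 13 to 20 reads per gene, which is the limit of depth here.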

Other observations

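Fasn and Acaca, consecutive enzymes of the pathway, kept a narrow ratio in single mice. The ratio of Fasn to Acaca in CPM ran from 7.93 to 10.5 in Control and from 8.74 to 12.3 in Wheel mice with PBS liposomes, and from 6.63 to 10.8 in Control and from 7.65 to 11.7 in Wheel mice with clodronate liposomes. The ratio of Acly to Fasn ran from 0.149 to 0.358 in Control and from 0.0939 to 0.251 in Wheel mice with PBS liposomes, and from 0.1003 to 0.156 in Control and from 0.0823 to 0.247 in Wheel mice with clodronate liposomes. All of these ranges overlap between the liposomes, and no test was made of them.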
